A study of Mus musculus with 48 samples.

Results

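Ifitm1, Ifitm2, Ifitm3, Bst2 and B2m are 5 genes whose products act against viruses at cell membranes or at the cell surface. They were chosen by name, with earlier results of these data known, and all 5 were found among the 49671 genes counted in 48 single cells of the mouse inner cell mass (ICM). The levels below describe these cells. No test was made, because no label ties a cell to its embryo, so that the cells count as 1 sample, and because the branches by which they are grouped were themselves made from the expression of the same cells.

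The Ifitm genes encode small interferon-induced transmembrane proteins that hinder enveloped viruses from fusing with the membranes of a cell, and Ifitm3, also known as fragilis, is familiar from the forming germ line. Bst2 (tetherin) holds budding virus particles at the surface, and B2m is the light chain that MHC class I molecules need to reach it. Pluripotent cells are known for a weak response to interferon while making some of its target genes, the Ifitm family among them, without it.

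Cells came from embryos at E3.75 of natural matings between mice with the PDGFRa::H2B-GFP/+ reporter, a human H2B-GFP cassette targeted to the Pdgfra locus, and F1 hybrids (C57BL/6JxCBA/J). According to the methods 3 embryos positive for the reporter were used, collected for scattered GFP-positive cells in the ICM and a proper GFP intensity. The outer cells were removed by immunosurgery, and full-length cDNA of each ICM cell was sequenced after Smart-seq2. No cell received a treatment, and no label says from which embryo a cell came. The cells were placed by the study's dendrogram, read by eye, on the branch of presumptive epiblast (pEPI, 25 cells) or presumptive primitive endoderm (pPrE, 23 cells). Total counts per cell ranged from 1718970 to 7342785, with medians of 3751329 in pEPI and 4251373 in pPrE. A further split runs through both branches: 4 genes of the Y chromosome (Kdm5d, Uty, Eif2s3y, Ddx3y) together had 242 to 1298 counts in 29 cells (17 pEPI and 12 pPrE) and 0 or 1 count in the other 19 (8 pEPI and 11 pPrE). In the order of the wells these were runs of cells, A1 to C2 and E1 to F3 with Y-linked counts, C3 to D8 and F4 to F8 without. Total counts had a median of 3966920 in the cells with and 4251373 in the cells without them. Because the embryos are not labelled, embryo, its sex and place in the order of wells cannot be told apart, and the log2 ratios of the 5 genes are also given within both sets of cells.

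Levels are in FPKM, counts per kilobase of exon scaled to a library size by the median of ratios. A log2 ratio is the log2 of the mean FPKM of one set of cells over that of another. Its 95% interval has the width of the exact interval of the summed counts, which treats every read as independent. Reads that carry no molecular identifier cannot be counted as independent molecules, so the interval may be too narrow even for counting error. It leaves out the spread between cells and between embryos. A gene counted as detected in a cell at a minimum of 10 CPM, a unit that scales its counts by the total of that cell. Shares of cells carry exact Clopper-Pearson 95% intervals, which treat cells as independent draws and leave out differences between embryos.

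Ifitm1, the family member best known at the plasma membrane, was found in few cells, and most of these had no Y-linked counts. In the 8 pEPI cells without Y-linked counts it ranged from 2.07 to 209.9 FPKM with a median of 11.2, and in the 17 pEPI cells with them from 0 to 7.76 with a median of 0. In pPrE it ranged from 0 to 21.04 FPKM with a median of 0 in the 11 cells without Y-linked counts, and it had 0 counts in each of the 12 cells with them. So all 8 pEPI cells without Y-linked counts had counts of Ifitm1, while of the 29 cells with them 2 did, in wells F1 and A7. Of its 2331 counts, 2286 lay in cells without Y-linked counts and 45 in cells with them. The log2 ratio of cells without over cells with Y-linked counts was 6.40 (5.98 to 6.86), and 6.74 (6.32 to 7.20) within pEPI. Within pPrE its CPM was at least 90.6-fold higher in the cells without Y-linked counts, against a floor of 3 counts over the cells at 0, and at least 54.9-fold without the cell in F5. The ratios rest in part on single cells: the overall one was 5.66 without the cell in well C3 and 9.55 without that in F1, and the one within pEPI 5.99 and 9.85. The cell in F1 held 40 of the 45 counts.

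Between the branches the mean of Ifitm1 fell from 17.9 ± 51.8 FPKM (SD, n = 25 cells) among pEPI to 1.93 ± 5.33 (SD, n = 23 cells) among pPrE cells. As pPrE over pEPI the log2 ratio was -3.21 (-3.40 to -3.04). Most cells of both branches were at 0, and the ranges overlapped: 36.5% of all pairs of a pEPI and a pPrE cell had the pEPI cell higher, 13.9% the pPrE cell, and 49.6% were tied. The gene was detected in 5 of 25 pEPI cells (20%, 6.83% to 40.7%) and 3 of 23 pPrE cells (13.04%, 2.78% to 33.6%), and after every cell was thinned to 1718970 counts in 4 and 3. The cell in C3 held 43.5% of the pEPI counts. Leaving out 1 cell moved the log2 ratio to -2.36 (C3), -2.61 (C8) or -4.08 (F5), and leaving out the 8 wells of letter C, where C3 and C8 lie, moved it to -0.44. Without letter F it was -5.01. Within cells without Y-linked counts the log2 ratio was -3.77 (-3.95 to -3.59), with -3.02 without the cell in C3 and -4.56 without that in F5. Within cells with them the pPrE cells were all at 0, and the CPM of pPrE was at least 10.3-fold lower than that of pEPI against the floor. Without the cell in F1 this bound was 1.23-fold, from the 5 counts left in pEPI.

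Ifitm2 was the most abundant of the 5 genes and had counts in all 48 cells. It ranged from 5.41 to 504 FPKM with a median of 81.4 in pEPI and from 11.7 to 339 with a median of 64.0 in pPrE. The means were 153 ± 153 FPKM (SD, n = 25 cells) and 94.0 ± 86.6 (SD, n = 23 cells), a log2 ratio of -0.70 (-0.74 to -0.65). The branches overlapped over most of their range, and the difference of the means was smaller than the SD of pEPI. The split by Y-linked counts was wider than that by branch. In the pEPI cells without Y-linked counts Ifitm2 ranged from 88.3 to 504 FPKM with a median of 331, and in those with them from 5.41 to 188 with a median of 70.0. In pPrE the medians were 110.5 (14.01 to 339) without and 47.1 (11.7 to 116) with them. Within pEPI the ranges met between 88.3 and 188 FPKM, and in 97.1% of the pairs the cell without Y-linked counts was the higher one; in pPrE it was in 75.8%. The log2 ratio of cells without over cells with Y-linked counts was 1.75 (1.697 to 1.79), 2.18 (2.11 to 2.24) within pEPI and 1.35 (1.27 to 1.43) within pPrE. Conversely the log2 ratio of pPrE over pEPI was -1.24 (-1.29 to -1.18) within cells without and -0.41 (-0.49 to -0.32) within cells with Y-linked counts. Means of pPrE were below those of pEPI in 5 of the 6 well letters for Ifitm2, and in 3 for each of the other genes. The means were equal, both at 0, in 2 letters for Ifitm1 and 1 for Bst2. Those of pPrE were higher in 1 letter for Ifitm1 and for Ifitm2, 2 for Bst2, and 3 for Ifitm3 and for B2m. Detection hardly differed, with 23 of 25 pEPI cells (92%, 74.0% to 99.0%) and 21 of 23 pPrE cells (91.3%, 72.0% to 98.9%), or 23 and 22 after thinning.

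Ifitm3, which restricts viruses that enter through endosomes, stood between the other Ifitm genes in level. It ranged from 0 to 490.7 FPKM with a median of 45.99 in pEPI and from 0 to 166 with a median of 31.6 in pPrE, with means of 90.1 ± 121 FPKM (SD, n = 25 cells) and 43.4 ± 45.3 (SD, n = 23 cells). The log2 ratio was -1.06 (-1.12 to -0.99), and the branches overlapped, with the pEPI cell higher in 60.7% of pairs and the pPrE cell in 36.7%. This ratio passed 2-fold narrowly, and fell short of it from summed counts (-0.96) and by medians (-0.54). It lost that size without any 1 of the cells in C3 (-0.76), D4 (-0.87) or C8 (-0.89), all of them pEPI, and was -0.99 without any 1 of 6 pPrE cells at or near 0 (A1, B3, B8, C5, D1 and E8). Leaving out letter C gave -0.43, letter D -0.79 and letter B -0.94. In the pEPI cells without Y-linked counts Ifitm3 ranged from 30.4 to 490.7 FPKM with a median of 107.5, and in those with them from 0 to 113 with a median of 33.5. In pPrE the medians were 40.95 (0 to 166) without and 28.8 (0 to 142) with them. High values thus gathered in pEPI cells without Y-linked counts, while the other 3 sets of cells had similar ranges. The log2 ratio of cells without over cells with Y-linked counts was 1.52 (1.45 to 1.58), 2.27 (2.19 to 2.34) within pEPI and 0.46 (0.36 to 0.57) within pPrE. The log2 ratio of pPrE over pEPI was -1.95 (-2.03 to -1.87) within cells without and -0.14 (-0.25 to -0.04) within cells with Y-linked counts, where it was 0.03 without the cell in A4. Detection was 21 of 25 pEPI cells (84.0%, 63.9% to 95.5%) and 16 of 23 pPrE cells (69.6%, 47.1% to 86.8%), or 20 and 16 after thinning.

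**Figure D1:**
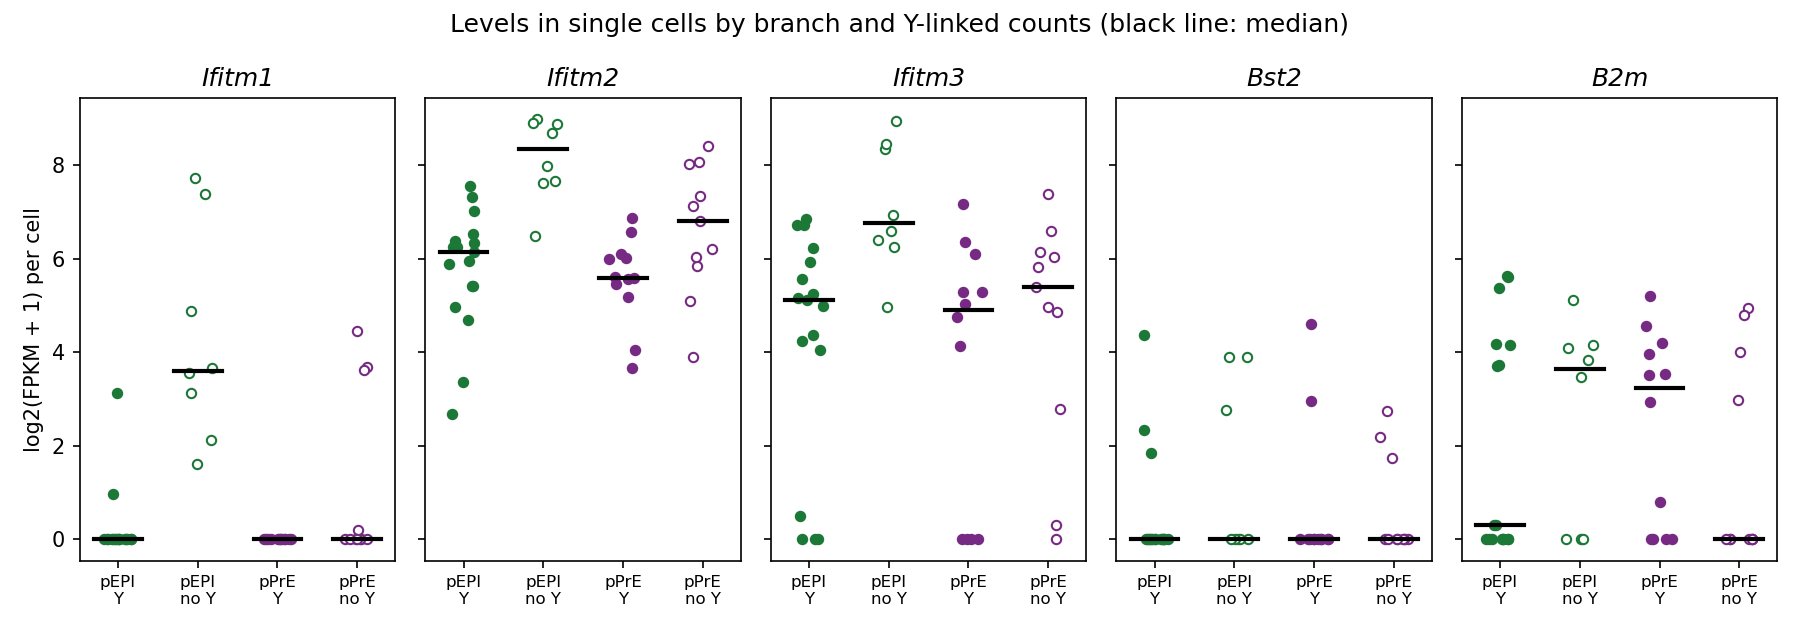
Level of each gene in single cells as log2(FPKM + 1) on the vertical axis, with green pEPI and purple pPrE cells and with filled points for the 29 cells with and open points for the 19 cells without Y-linked counts; black lines are medians. For Ifitm1, Ifitm2, Ifitm3 and B2m the median of the open green points is the highest of the 4 sets, at 11.2, 331, 107.5 and 11.7 FPKM.

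Bst2, the tether of budding virus, was close to the limit of what these libraries show. It ranged from 0 to 19.7 FPKM in pEPI and from 0 to 23.3 in pPrE with a median of 0 in both, and 11 of 48 cells held its 353 counts. The means were 2.40 ± 5.34 FPKM (SD, n = 25 cells) and 1.81 ± 5.07 (SD, n = 23 cells), a log2 ratio of -0.40 (-0.72 to -0.09). The cells with counts were spread over both branches and both sets. The ratio had no steady direction: it was 0.69 (0.27 to 1.11) within cells with and -2.00 (-2.51 to -1.50) within cells without Y-linked counts, -1.53 without the cell in B5, and 0.15 and 0.19 without letters E and F. It was detected in 3 of 25 pEPI cells (12%, 2.55% to 31.2%) and 1 of 23 pPrE cells (4.35%, 0.110% to 21.9%), and after thinning in 2 and 1. Against the Y-linked split its log2 ratio of cells without over cells with those counts was 0.29 (-0.02 to 0.60), with 1.44 (1.03 to 1.84) within pEPI and -1.25 (-1.78 to -0.74) within pPrE. It was 1.01 without the cell in B5, and -0.18 and -0.25 without letters A and F, so this ratio turned as well. Leaving out 1 cell also turned the ratio of pPrE over pEPI in cells with Y-linked counts, to -1.34 without B5, and moved it to 2.58 without E2 and, in cells without those counts, to -2.82 without D7. The ratio within pEPI moved to 3.32 without E2, and that within pPrE to 0.78 without B5 and -2.08 without D7.

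B2m, the light chain of MHC class I, was found in 26 of 48 cells, of which 3 held 1 to 3 counts. It ranged from 0 to 48.1 FPKM in pEPI and from 0 to 35.7 in pPrE, with means of 11.4 ± 15.5 FPKM (SD, n = 25 cells) and 8.57 ± 11.2 (SD, n = 23 cells) and a log2 ratio of -0.41 (-0.56 to -0.26). The branches overlapped throughout, and 22 of 48 cells had 0 counts, 11 in each branch. The medians were ordered the other way, 0.247 FPKM in pEPI and 0.751 in pPrE, which are single cells of 1 and 3 counts. Within the sets with and without Y-linked counts the log2 ratio was -0.21 (-0.40 to -0.02) and -0.65 (-0.89 to -0.41). Without the cell in E5 the ratio within cells with Y-linked counts turned to 0.11. Grouping the cells by the sign of the first principal component in place of the dendrogram gave a log2 ratio of 0.05. That grouping matched the branch for 47 of 48 cells and moved only the cell in E5, so this value rests on the same cell. The split by Y-linked counts did not order B2m as it did the Ifitm genes: the log2 ratio of cells without over cells with Y-linked counts was -0.29 (-0.44 to -0.14), or -0.03 (-0.24 to 0.17) within pEPI and -0.47 (-0.70 to -0.24) within pPrE. Its direction was not steady: leaving out letters or cells gave -0.84 to 0.10 over all cells, and 0.29 within pEPI without the cell in E5. The medians of B2m were 11.7 FPKM without and 0.242 with Y-linked counts within pEPI, and 0 and 8.55 within pPrE. The order of the wells showed another feature. All 5 cells from F4 to F8 had 0 counts of B2m, with total counts of 3126723 to 7342785, while 4 of them had Ifitm1 counts and all had Ifitm2 and Ifitm3. In the other run without Y-linked counts, C3 to D8, 9 of 14 cells had B2m counts. B2m was detected in 11 of 25 pEPI cells (44%, 24.4% to 65.1%) and 7 of 23 pPrE cells (30.4%, 13.2% to 52.9%), or 10 and 8 after thinning.

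**Figure D2:**
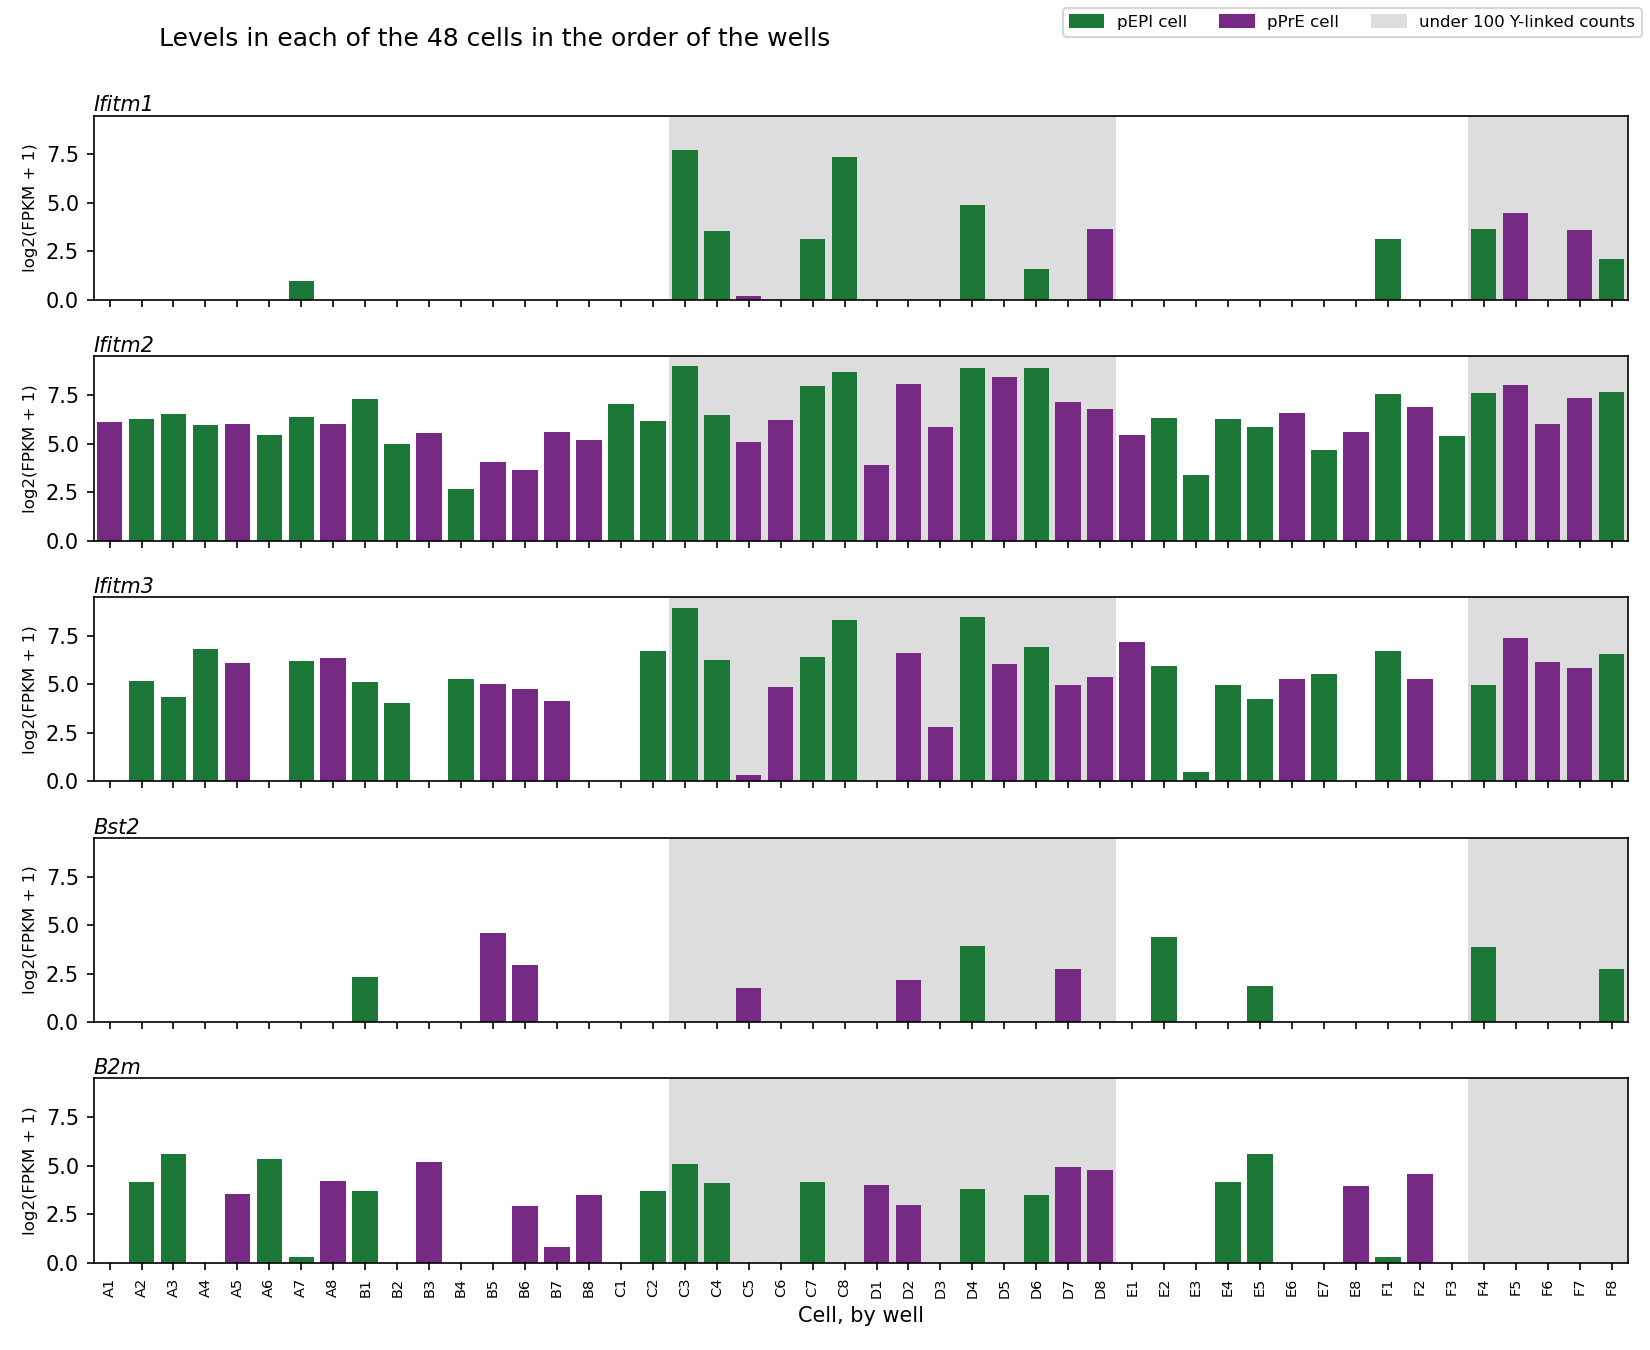
Level of each gene as log2(FPKM + 1) on the vertical axis in each of the 48 cells, in the order of the wells on the horizontal axis; green bars are pEPI and purple bars pPrE cells, and grey marks the 19 cells with fewer than 100 Y-linked counts. Ifitm1 appears in 12 of the cells on grey and in 2 others, and B2m is at 0 in the 5 cells from F4 to F8.

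By mean FPKM over all cells the order was Ifitm2 (125), Ifitm3 (67.7), Ifitm1 (10.2), B2m (10.03) and Bst2 (2.12). The place of Ifitm1 rests on the cell in C3, without which its mean was 5.99 FPKM, and by mean log2(FPKM + 1) B2m (2.06) lay above Ifitm1 (1.04). Each neighbouring pair in that order differed by less than the SD over cells of the higher gene. Ifitm2 lay above 95.7% and Ifitm3 above 91.9% of the 11193 genes with a mean log2(FPKM + 1) above 0.5, Ifitm1 above 63.0%, B2m above 62.6% and Bst2 above 23.3%. The coefficient of variation over the 48 cells was 1.03 for Ifitm2, 1.35 for B2m, 1.40 for Ifitm3, 2.44 for Bst2 and 3.72 for Ifitm1.

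All 5 genes passed this level filter, and all 5 had a lower mean in pPrE, as did 49.4% of all genes above it. Past 2-fold, 2 of them were lower in pPrE (Ifitm1 and Ifitm3) and 0 higher, where 7.72% of all genes above the filter were lower and 5.43% higher. The median log2 ratio was -0.70 over the 5 genes and 0.01 over the 11193. In the other contrast, 3 genes were past 2-fold higher in cells without Y-linked counts (the Ifitm genes) and 0 lower, where 6.82% of all genes were higher and 6.09% lower, with medians of 1.52 and 0.01. The genes were chosen with results of these cells known, and nothing is read from these shares.

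The numbers of cells in which genes were detected together lay mostly close to the products of their single shares, which are given in brackets as cells. All 5 genes were detected together in 1 of 48 cells (2.08%, 0.0527% to 11.1%), the pEPI cell in D4 [0.177], and in 0 cells after thinning. Ifitm1, Ifitm2 and Ifitm3 were detected together in 8 cells [5.65] (16.7%, 7.48% to 30.2%), which are all of the cells with Ifitm1 at this minimum: C3, C4, C8, D4 and F4 of pEPI and D8, F5 and F7 of pPrE. None of the 8 had Y-linked counts. Ifitm2 and Ifitm3 were detected together in 35 cells [33.9], 20 of pEPI and 15 of pPrE. B2m shared 17 of its 18 cells with Ifitm2 [16.5] and 14 with Ifitm3 [13.9], and Bst2 shared its 4 cells with both [3.67 and 3.08]. Ifitm1 was found in 4 cells with B2m [3] and 2 with Bst2 [0.667], and B2m with Bst2 in 1 [1.5]. Counted per cell, 1 cell had none of the 5 genes, 9 had 1, 18 had 2, 15 had 3, 4 had 4 and 1 had all 5.

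Over the 48 cells, which share embryos and differ in depth, the levels of the Ifitm genes were correlated with each other more than with those of Bst2 or B2m. Spearman's rho was 0.62 for Ifitm1 with Ifitm2, 0.61 for Ifitm2 with Ifitm3 and 0.54 for Ifitm1 with Ifitm3. The other 7 pairs lay between -0.06 and 0.13 over all cells and varied in sign within smaller sets, among them Ifitm2 with Bst2 at -0.64 in pPrE with Y-linked counts (12 cells), Ifitm2 with B2m at 0.37 in pEPI with them (17 cells), and Bst2 with B2m at -0.42 in pEPI (8 cells) and 0.46 in pPrE (11 cells) without them. The correlation of Ifitm2 with Ifitm3 was 0.87 within the 19 cells without and 0.29 within the 29 cells with Y-linked counts, while by branch it was 0.61 in pEPI and 0.54 in pPrE. With both splits it was 0.23 and 0.88 in pEPI and 0.19 and 0.80 in pPrE, with and without Y-linked counts. For Ifitm1 with Ifitm2 it was 0.54 without and 0.36 with Y-linked counts, and 0.79 in pEPI and 0.28 in pPrE. The value of pEPI fell to 0.46 in its 17 cells with and 0.29 in its 8 cells without Y-linked counts, and pPrE without them had 0.16. For Ifitm1 with Ifitm3 it was 0.63 and 0.33, and 0.66 and 0.24, with 0.41 and 0.50 in pEPI with and without Y-linked counts and 0.25 in pPrE without them. Depth followed these levels little, with rho of total counts between -0.29 (B2m) and 0.25 (Ifitm1).

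The genes most like each of the 5 were named by the highest rho over the 48 cells among 8929 genes with a mean log2(FPKM + 1) above 1. For Ifitm1 they were Slc7a3 (0.69), Zp3 (0.68), Capsl (0.65), Sms (0.65) and Gm4737 (0.64). These genes also split by Y-linked counts: Slc7a3, a cationic amino acid transporter on the X chromosome, had a mean of 2.98 FPKM in cells with and 20.9 in cells without them, and Gm4737 0.869 and 76.1. Within the cells with Y-linked counts, where Ifitm1 was almost at 0, the rho with these 5 genes lay between 0.00 and 0.43, and within the cells without them between 0.49 and 0.83. For Ifitm2 the genes were Txlng (0.68), Sms-ps (0.65), Jam2 (0.63), Ifitm1 (0.62) and Gm11951 (0.62). Of these Txlng and Sms-ps lie on the X chromosome, like Slc7a3 and Sms and like Apoo, named below for Bst2. The share of X-linked genes among all candidates was not counted, so nothing is read from this. Gm11951 is a processed pseudogene that shares sequence with Ifitm2. Within the cells with and without Y-linked counts the rho of Ifitm2 was 0.37 and 0.68 with Txlng and 0.05 and 0.79 with Jam2, an adhesion molecule of tight junctions. For Ifitm3 they were Ifitm2 (0.61), Adam19 (0.60), Gm4675 (0.58) and Ckb (0.57), with rho between 0.29 and 0.50 within cells with and between 0.40 and 0.87 within cells without Y-linked counts. For B2m they were Rps26 (0.53), Rps16 (0.52), Tsen54 (0.49), Gm10709 (0.47) and Uqcr11 (0.47), and for Bst2 Gm12209 (0.56), Atf7ip (0.49), Chchd3 (0.47), Apoo (0.46) and 3110009E18Rik (0.45). With 37 of 48 cells at 0 the values of Bst2 describe few cells.

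Ifitm1 (ENSMUSG00000025491), Ifitm2 (ENSMUSG00000060591) and Ifitm3 (ENSMUSG00000025492) lie within 55934 bases of chromosome 7 of GRCm38, at 140967221 to 140969825 on the plus strand, 140954837 to 140955987 on the minus strand and 141009586 to 141010770 on the minus strand. Bst2 (ENSMUSG00000046718) lies on chromosome 8 at 71534255 to 71537456, and B2m (ENSMUSG00000060802) on chromosome 2 at 122147686 to 122153083. The rest of the family was near 0. Ifitm5 and Ifitm6, which flank the cluster, had 97 counts in 5 cells and 134 counts in 2 cells, Ifitm7 on another chromosome had 1 count, and Ifitm10 had 0. Other neighbours were low as well, with 152 counts of Pgghg, 81 of the pseudogene Gm7514 and 0 of Nlrp6, so within this stretch the counts lay almost wholly on the 3 Ifitm genes.

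**Figure D3:**
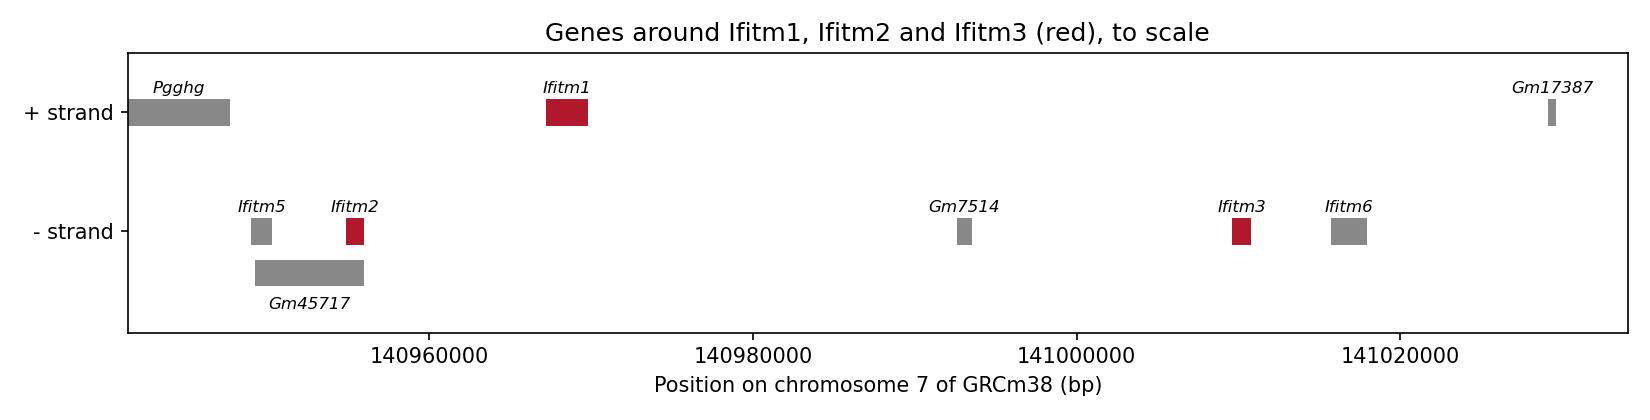
Genes of the GENCODE M21 annotation around the Ifitm cluster, drawn to scale along chromosome 7 of GRCm38 (horizontal axis, base pairs) by strand; Ifitm1, Ifitm2 and Ifitm3 are red. Gm45717 overlaps Ifitm2 on the same strand and had 9 counts.

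The levels of the Ifitm genes are uncertain where their sequences are shared. Of all stretches of 50 bases in the transcripts of Ifitm2, 48.5% also occur in transcripts of another gene. Among them were 36.1% in Gm45717, 14.9% in Gm11951, 12.4% in Gm8865, 7.76% in Gm45308, 5.61% in Gm2840 and 3.30% in Ifitm3. For Ifitm3 the share was 10.02% and for Ifitm1 5.02%, where 1.42% of all its stretches occur in Ifitm3, and for Bst2 and B2m it was 0. Exons of Gm45717, an annotated gene on the same strand, cover 268 of the 655 exon bases of Ifitm2 (40.9%), and a counter that drops reads falling on both genes would leave them out. The level of Ifitm2 may therefore be too low against the others. Gm11951 had 368 counts and Gm45717 9 against 15954 of Ifitm2.

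Of 6 interferon genes, whose products are ligands that induce these genes, 5 had no count. Ifnb1, Ifna4, Ifng, Ifne and Ifnl3 had 0 counts in all 48 cells, which allows up to 0.0158 CPM over all cells (3 counts of 189591447), and Ifnk had 1 count. Their receptors and signalling genes were in part present, with 9 of 20 above the level filter, 2 past 2-fold higher in pPrE (5.43% of all genes) and 0 lower (7.72%), and a median log2 ratio of 0.13. Socs3, a feedback inhibitor of cytokine signalling, had a mean of 90.4 FPKM and a log2 ratio of 0.13 (0.11 to 0.16; 0.12 with and 0.28 without Y-linked counts), and Irf3, a transcription factor that induces interferon, 10.8 FPKM and -0.08 (-0.14 to -0.01; 0.25 and -0.53). The 2 past 2-fold were Socs1, another such inhibitor, which rose from 7.45 to 15.98 FPKM in pPrE (1.10, 1.02 to 1.18; 1.17 within each set), and Ifngr1, a chain of the interferon gamma receptor (1.60, 1.47 to 1.72; 1.76 and 1.73), which was named after its value was seen. Irf7, Irf8, Usp18 and Ifnlr1 had 0 counts.

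Among 34 other interferon-stimulated genes, 14 had 0 counts in all cells, among them Isg15, Ifit1, Ifit2, Ifit3, Rsad2, Oas2 and Mx2, which are commonly used to read an interferon response. Above the level filter were 12, with 10 lower in pPrE (49.4% of all genes), 5 of them past 2-fold (7.72% of all), and 1 past 2-fold higher (5.43%), and their median log2 ratio was -0.89. Zc3hav1, a zinc finger protein that binds viral RNA, fell from a mean of 23.7 FPKM in pEPI to 6.90 in pPrE (log2 ratio -1.78, -1.83 to -1.73), and its ratio was -1.96 within cells with and -1.29 within cells without Y-linked counts. Ly6e, a surface protein that acts in the entry of viruses, had 28.5 and 15.05 FPKM (-0.92, -0.97 to -0.87; -0.34 with and -1.77 without Y-linked counts), Trim25 12.3 and 9.78 (-0.33, -0.38 to -0.28; -0.37 and -0.53) and Shisa5 32.003 and 31.3 (-0.03, -0.07 to 0.01; 0.01 and -0.22). The others past 2-fold, named after their values were seen, were Ifi35 (-2.23), Oas1a (-2.06), Parp9 (-1.84) and Apobec3 (-1.48), all lower, and Xaf1 (1.15; 1.43 and 0.68), which was higher. With a level filter of 1 in place of 0.5 Xaf1 was no longer counted. The 5 genes that were past 2-fold lower kept that direction within both sets of cells. Within cells with Y-linked counts, where the ratio of Ifitm3 was -0.14, it was -1.31 for Oas1a, -2.04 for Ifi35, -2.94 for Parp9 and -1.99 for Apobec3. These genes were picked for their ratios. Those of the list above the filter but not past 2-fold had ratios there of 0.02 (Adar), 0.18 (Parp14), -0.26 (Samhd1), -0.34 (Ly6e), -0.37 (Trim25) and 0.01 (Shisa5).

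Sensors of viral nucleic acid were sparse, with 4 of 12 above the filter and a median log2 ratio of 0.43. Tbk1, the kinase behind several sensors, had 10.7 FPKM and a log2 ratio of 0.02 (-0.04 to 0.09; -0.09 with and 0.33 without Y-linked counts). Named after their values were seen, Mavs, the mitochondrial adaptor, was past 2-fold lower in pPrE (-2.09, -2.20 to -1.98; -2.92 and -1.78) and Ddx58, which encodes the sensor RIG-I, higher (1.37, 1.25 to 1.49; 1.85 and 0.50). Ifih1, Tlr3, Tlr7 and Tlr9 had 0 counts.

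The partners of B2m were unevenly present. H2-K1 and H2-D1, classical heavy chains, were detected in 48 and 40 of 48 cells, with means of 28.3 and 13.1 FPKM and log2 ratios of -0.39 (-0.43 to -0.34) and -0.07 (-0.14 to 0.00). Their direction varied between sets of cells, from 0.01 to -0.98 for H2-K1 and from -0.82 to 0.53 for H2-D1, where the first value is that of cells with Y-linked counts. The heavy chains did not follow B2m: H2-K1 had a median of 22.8 FPKM (4.65 to 146) in the 22 cells with 0 B2m counts and 21.9 (4.86 to 76.5) in the other 26, and its rho with B2m was -0.19. In the 5 cells from F4 to F8, without B2m counts, H2-K1 was detected in 5 and H2-D1 in 4. Heavy chain genes resemble each other, so their own levels are uncertain. Of 14 partner genes 3 were above the filter, all lower in pPrE (49.4% of all genes) with a median of -0.39, and Fcgrt, the neonatal Fc receptor, named after its value was seen, was past 2-fold (-1.75; -0.40 with and -2.53 without Y-linked counts). With a level filter of 1 in place of 0.5 Fcgrt was no longer counted. H2-Q6, Mr1 and Hfe had 0 counts.

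Of 14 genes that load class I molecules with peptide, 8 were above the filter, 4 lower and 4 higher in pPrE (49.4% of all genes lower). Their median was 0.05, and 0 were past 2-fold, where 7.72% of all genes were lower and 5.43% higher. The chaperones Calr and Pdia3, which serve many glycoproteins, had means of 165 and 205 FPKM and log2 ratios of 0.29 (0.27 to 0.30; 0.10 with and 0.31 without Y-linked counts) and 0.15 (0.14 to 0.17; 0.17 and 0.03). The proteasome activators Psme1 and Psme2 had 16.3 and 22.9 FPKM and ratios of -0.54 (-0.61 to -0.47; -0.24 and -1.02) and -0.48 (-0.55 to -0.41; -0.41 and -0.60). The peptide transporter genes Tap1 and Tap2 were at 0.152 and 0.154 FPKM, and Psmb8 and Nlrc5, the activator of class I genes, had 0 counts.

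The branches, which were clustered from the same cells, differed in their markers. Of 8 pEPI markers 8 were lower in pPrE (49.4% of all genes), 5 past 2-fold (7.72%). Their median log2 ratio was -2.34, with values of -3.80 for Fgf4, -3.25 for Klf2, -2.85 for Nanog and -0.86 for Tdgf1. Of 8 pPrE markers 7 were above the filter and past 2-fold higher (5.43% of all genes). Their median was 2.68, with values of 3.38 for Lama1, 3.33 for Gata4, 3.31 for Sox17 and 1.85 for Col4a1. The sums of these markers were set beside the Ifitm genes. Most of the pEPI sum was Tdgf1, with a mean of 537 FPKM over all cells, followed by Nanog with 185, so its values describe largely Tdgf1. The pEPI markers summed to 1788 FPKM in the median (1045 to 2223) of the 8 pEPI cells without and 965 (300.3 to 1705) of the 17 with Y-linked counts, and over the 48 cells their sum had a rho of 0.56 with Ifitm1, 0.45 with Ifitm2 and 0.37 with Ifitm3. Within the cells with Y-linked counts these were 0.31, 0.02 and -0.09, and within the cells without them, which mix both branches, 0.68, 0.64 and 0.68. Split by branch as well, they were 0.43, -0.55 and -0.38 within pEPI without Y-linked counts (8 cells) and 0.41, 0.80 and 0.76 within pPrE without them (11 cells). In cells with those counts they were 0.25, -0.07 and -0.10 within pEPI (17 cells), and -0.31 for Ifitm2 and -0.47 for Ifitm3 within pPrE (12 cells), so that for Ifitm2 and Ifitm3 the direction differed between sets. The sum of the pPrE markers had a rho over the 48 cells of -0.37 with Ifitm1, -0.23 with Ifitm2 and -0.24 with Ifitm3. Its sign varied too, with -0.59, -0.44 and -0.26 within pEPI and 0.05, 0.23 and 0.04 within pPrE. The values were -0.27, -0.13 and 0.04 in cells with and -0.67, -0.51 and -0.58 in cells without Y-linked counts. Both of these sets mix the branches. Split by branch as well, cells without Y-linked counts had -0.43, 0.33 and 0.02 within pEPI and -0.41, -0.12 and -0.15 within pPrE. Cells with them had -0.17, -0.10 and 0.13 within pEPI, and 0.20 for both Ifitm2 and Ifitm3 within pPrE. The Y-linked genes themselves, 3 of 4 above the filter, had 0 past 2-fold between the branches (7.72% of all genes lower, 5.43% higher). Their median was -0.43, with 14.4 and 8.15 FPKM for Eif2s3y (-0.82, -0.88 to -0.76). The part of the markers, of the embryo and of the order of wells in the levels of the Ifitm genes was not tested.

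Markers of other cells were in part present. Of 8 trophectoderm markers 3 were above the filter, with a median log2 ratio of -0.52 and a summed median of 31.02 FPKM (3.43 to 173) in pEPI and 32.4 (0.256 to 104) in pPrE. Most of the sum was Krt8, with a mean of 34.3 FPKM and a log2 ratio of -0.52 (-0.57 to -0.47), and Krt18, named after its value was seen, was past 2-fold lower in pPrE (-1.17). Both turned between the sets, at -1.05 and -3.07 with and 0.89 and 0.96 without Y-linked counts. With a level filter of 1 in place of 0.5 Krt18 was no longer counted. Of the transcription factors Cdx2, Gata3 and Elf5 were at 0.216, 0.575 and 0.0762 FPKM, while Eomes had 3.21 FPKM, was detected in 19 of 48 cells and was slightly higher in pPrE (log2 ratio 0.31, 0.20 to 0.43; 0.93 with, -0.56 without Y-linked counts). Over the 48 cells the summed level had a rho between -0.20 and -0.05 with the Ifitm genes, while smaller sets went both ways: -0.36 in pEPI and 0.32 in pPrE for Ifitm1, and 0.27 in cells with and -0.40 in cells without Y-linked counts for Ifitm2. Of 8 leukocyte and erythroid markers, in which Ifitm and class I genes are abundant, Ptprc, Lyz2, Tyrobp, Hba-a1 and Hbb-bs had 0 counts, and the most abundant, Cd3e, a mean of 0.437 FPKM.

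The promoters of the 5 genes were searched, because the levels of the Ifitm genes were correlated over all cells, though weakly within some sets, and all 5 are known targets of interferon. RefSeq windows on GRCm38.p6, from 250 bases before to 50 after the start of a gene, were read on both strands for GAAANNGAA, a core that IRF and ISRE sites share, and TTCNNNGAA, a STAT site that can overlap it. The first occurs in 8.53% and the second in 8.33% of 32544 windows. It was found in 4 of the 5 genes: in Ifitm2 46 bases before the start, in Ifitm3 2 and 19 bases after it, in Bst2 130 and 124 bases before it with an overlap of both, and in B2m 139 bases before it. TTCNNNGAA was found in Ifitm3, 13 bases after the start, and in Bst2, 136 bases before it, each time overlapping the first motif. Neither was in the window of Ifitm1 (chr7:140967826-140968125, plus strand), whose RefSeq start lies 855 bases inside the GENCODE gene, so the bases before the annotated start of Ifitm1 were not searched. The stretches with GAAANNGAA in capitals are shown for comparison of these 4 genes, of which Ifitm2 and Ifitm3 were abundant and Bst2 and B2m were not. A match describes the letters of these windows and no binding.
Ifitm2, chr7:140955979-140956027, minus strand: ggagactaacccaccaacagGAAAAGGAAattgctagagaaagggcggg
Ifitm3, chr7:141010715-141010744, minus strand: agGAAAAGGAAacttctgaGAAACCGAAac
Bst2, chr8:71537568-71537622, minus strand: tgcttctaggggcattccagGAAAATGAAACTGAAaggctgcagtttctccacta
B2m, chr2:122147528-122147576, plus strand: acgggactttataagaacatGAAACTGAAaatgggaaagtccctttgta

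The motif was also in the windows of interferon-stimulated genes with other levels. It occurred in 15 of 26 of them with a window (57.7%), where 9.74% of all 26742 genes with a window held it. Among these 15 were Isg15, Ifit1 and Rsad2, which had 0 counts in these cells, and Oas1a, Apobec3, Trim25 and Shisa5, which were above the level filter. Of the other Ifitm genes 0 of 4 held it, and of the heavy chains and B2m partners 3 of 12 (25%).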

How the data were processed

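The deposited values are counts, made by the authors on Ensembl 87 genes of mm10 with htseq-count from alignments for which the submitters' processing notes name STAR; versions, strand setting and overlap mode are not given in the sources used here. FPKM used union exon lengths of GENCODE M21 and median-of-ratios library sizes, as DESeq2 computes fpkm, for 21858 genes. Log2 levels used a pseudocount of 1. All 145 symbols of 13 gene lists were matched by M21 or, for Mb21d1, by RefSeq synonyms. Members and lists were chosen with earlier results of these data known, and the Y-linked split uses a minimum of 100 counts over 4 genes. Named are the 5 genes, every interferon ligand, of each list the genes with a mean of at least 10 FPKM (the 4 with the largest ratios where there are more) and up to 5 of the most similar genes. Any other gene named, such as those at or near 0, was chosen after its values were seen. Thinning drew counts without replacement with a fixed seed. Variable genes for the principal component were those whose squared CV had a natural log over 0.25. Alternatives covered library size, summary over cells, pseudocount, grouping, detection minimum, depth, level filter, and leaving out well letters. Leaving out single cells, and the contrast of cells without over cells with Y-linked counts with all its alternatives, were added after seeing the data. Steps were tested on simulated data. Software was matplotlib 3.10.9, scipy 1.17.1, pandas 2.3.3 and numpy 2.4.6 under Python 3.11.15.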

Additional observations from a re-analysis of the deposited data

How the results depend on the processing

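The log2 ratio of pPrE over pEPI kept its direction for Ifitm1, Ifitm2 and Ifitm3 under the alternatives below, but not within each well letter: it was 0.51 for Ifitm1 in F, 0.32 for Ifitm2 in E, and 0.03, 0.96 and 0.53 for Ifitm3 in A, E and F. Ifitm1 was -2.77 from summed counts, -1.01 and -1.77 as the difference of mean log2 values with a pseudocount of 1 and 0.1, and -3.77 in cells without Y-linked counts; with all pPrE cells or both medians at 0, cells with Y-linked counts and the ratio of medians gave no value. Ifitm2 was -0.53 from summed counts, -0.47 with either pseudocount, -0.35 by medians, -0.76 by the sign of PC1, which matched the branch for 47 of 48 cells, and -0.41 and -1.24 in cells with and without Y-linked counts. Ifitm3 was -0.96, -1.39 with a pseudocount of 0.1, -0.54 by medians, -1.14 by PC1, and -0.14 and -1.95. Bst2 was 0.69 and -2.00 in cells with and without Y-linked counts. B2m was -0.17 and -0.20 with the pseudocounts, 1.61 by medians, 0.0542 by PC1, and -0.21 and -0.65. Leaving out 1 well letter or 1 cell gave -5.01 to -0.44 for Ifitm1, -0.88 to -0.34 for Ifitm2, -1.46 to -0.43 for Ifitm3, -1.98 to 0.19 for Bst2 and -0.70 to -0.0824 for B2m. The ratio of cells without over cells with Y-linked counts was, within pEPI and within pPrE, 2.18 and 1.35 for Ifitm2, 2.27 and 0.46 for Ifitm3, 1.44 and -1.25 for Bst2 and -0.0308 and -0.47 for B2m. Leaving out letters or cells it was 4.42 to 9.73 for Ifitm1, 1.58 to 1.98 for Ifitm2, 1.18 to 1.72 for Ifitm3, -0.25 to 1.16 for Bst2 and -0.84 to 0.10 for B2m.

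At 50 CPM, Ifitm1 was detected in pEPI only in the cells of C3 and C8, and in 0% of pPrE cells. At this minimum Ifitm2 was in 60% of pEPI and 39.1% of pPrE, Ifitm3 in 44% and 17.4%, and Bst2 and B2m in 0% of both. At 1 count Ifitm2 was in 100% of both. All 5 genes were together in 0 cells at 50 CPM or after thinning, and the 3 Ifitm genes in 2 cells at 50 CPM. Spearman's rho of Ifitm1 with Ifitm2 was 0.79 in pEPI, 0.28 in pPrE and 0.36 with Y-linked counts, of Ifitm1 with Ifitm3 0.24 in pPrE, of Ifitm2 with Ifitm3 0.29 with and 0.87 without Y-linked counts, and of Ifitm2 with Bst2 -0.20 in pPrE. Without 1 letter each, rho stayed between 0.52 and 0.66 for Ifitm1 with Ifitm2, 0.50 and 0.59 for Ifitm1 with Ifitm3 and 0.52 and 0.67 for Ifitm2 with Ifitm3, and between -0.24 and 0.24 for the other pairs. With a level filter of 1 in place of 0.5, 323 genes were past 2-fold higher and 500 lower in pPrE, and among genes with any count 4186 and 5088, since fewer or more genes were counted. At that filter the heavy chains and partners, the trophectoderm markers (lower) and the interferon-stimulated genes (higher) each fell from 1 gene past 2-fold to 0. Causes of the other changes were not tested. The counts of Bst2, Ifitm1 and B2m lie in 11, 14 and 26 cells. Counting error, as the intervals give it with reads taken as independent, is small beside the spread between cells for Ifitm2 and Ifitm3. No paired analysis was possible because no label ties a cell to its embryo.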
